A study of Capra hircus with 29 samples.

Results

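RNA-seq of goat oocytes was compared between the samples whose title ends in 1 or 5 (12 samples) and those whose title ends in 2 or 3 (11 samples), 23 of the 29 oocyte samples analysed here. The 6 samples numbered 4 were left out of this comparison and are described afterwards. The numbers were chosen from the expression values themselves: the samples numbered 1 or 5 and those numbered 2 or 3 did not overlap on the first principal component. Differences between these 2 sets are therefore given as a description, with no test. In the study's methods the numbers count the samples into which the oocytes of a stage were divided; whether the same number in different groups marks anything shared is not given in the sources used here.

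All samples were oocytes of Ji'ning grey goats with no treatment named beyond the group. The first letter of a group is the fertility of the goats, H for high and L for low, for which the sources differ. The labels put high above 3 kids a litter and low under 2, and the study's methods put high at 3 or over and low at 2 or under. The second letter is the follicle size (large, medium or small), and O stands for oocyte. HLO, HMO, LLO, LMO and LSO each had samples numbered 1, 2, 3, 4 and 5, and HSO had 1, 3, 4 and 5. In the study's methods, the oocytes of a stage were put together for the high fertility goats before they were divided into samples, so that the samples of a group need not be separate animals and p-values here measure the spread between samples, which may be technical.

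A growing oocyte makes and stores messenger RNA for the time when it matures and the early embryo divides, and its own transcription then falls silent. Stored messages are held by RNA-binding proteins, and their poly(A) tails are lengthened or shortened when they are to be translated or removed. Oocytes also secrete GDF9 and BMP15, which act on the surrounding granulosa cells, and build the zona pellucida from ZP proteins.

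Oocyte genes were present in both sets. GDF9, BMP15, ZP2, ZP3 and ZP4 all had at least 31.9 FPKM (fragments scaled to transcript length and to the mapped total) in each of the 23 samples, whereas NOBOX and NLRP5, also oocyte genes, did not exceed 1.27 and 0.615 FPKM. Of the 19 granulosa markers, AMH, NR5A1, HSD17B1 and AMHR2 were listed at 0 in all 23 samples, and the defining markers FSHR and CYP19A1 did not exceed 0.283 and 0.244 FPKM, whereas SERPINE2, KITLG and INHBA reached 18.5, 9.95 and 5.21 FPKM. Also listed at 0 in all 23 samples were 78 of 266 cytosolic ribosomal protein rows and 4 of 57 proteasome rows. Whether a value of 0 is a failed estimate was not tested, so it is not read as absence. Of the leukocyte markers, PTPRC did not exceed 0.0538 FPKM, whereas CD52 reached 667, LAPTM5 5.72 and LCP1 5.35 FPKM.

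The samples numbered 1 or 5 had more genes detected. Genes above 0.5 FPKM ranged from 7699 to 8452 (median 8279) in samples numbered 1 or 5 and from 6646 to 7527 (median 7376) in samples numbered 2 or 3. These ranges did not overlap. The FPKM of a sample summed to 350806 to 490048 in the first set and to 222697 to 461585 in the second. The 10 most abundant genes took 13.1 to 27.3% (median 15.2%) of the sum in the first set and 14.2 to 35.3% (median 21.3%) in the second. The median-of-ratios factor, which scales each sample by the median ratio of its genes to a common reference, was 1.08 to 1.37 for numbers 1 and 5 and 0.682 to 0.903 for numbers 2 and 3. FPKM are relative values, so more RNA per oocyte and a flatter division of the same RNA among genes cannot be told apart. In the study's methods a sample held 2 to 3 oocytes. The part of the number of oocytes and of sequencing depth in these differences was not tested. LLO 2 and LLO 5 stood apart from the other samples on the second principal component (17.0% of the variance, against 39.2% for the first), and LMO 2 had the lowest FPKM sum.

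**Figure D1:**
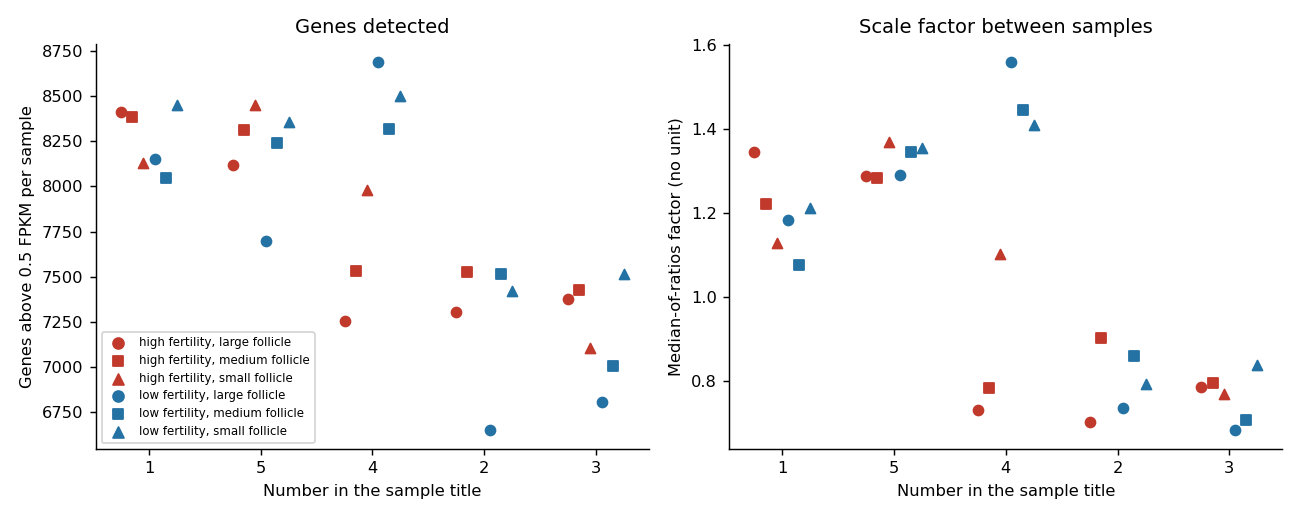
Genes above 0.5 FPKM (left) and the median-of-ratios factor (right) of each of the 29 samples, by the number in the sample title, with 1 point per sample, coloured by fertility and shaped by follicle size. In numbers 1 and 5 all samples have at least 7699 genes, in numbers 2 and 3 at most 7527, and number 4 spreads from 7251 to 8689.

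Most genes were higher in the samples numbered 1 or 5. Over the 9401 genes that exceeded 0.5 FPKM in 4 or more of the 23 samples, the median difference between the sets, adjusted for the 6 groups, was 0.36 on the log2(FPKM + 1) scale, or 1.29-fold, and 7096 genes (75.5%) had a difference above 0. The same direction in all 6 groups was found for 4397 of the genes above 0 and for 541 of those below 0. The median was of like size in each group, 0.44 in HLO, 0.31 in HMO, 0.41 in HSO, 0.39 in LLO, 0.32 in LMO and 0.41 in LSO. In 503 genes (5.35%) all 12 samples numbered 1 or 5 were above all 11 samples numbered 2 or 3, and in 1 gene (0.0106%) all 12 were below. The numbers were chosen for this contrast, so nothing is read from these shares. Without LSO 1 there were 1035 and 11 such genes. The lower genes numbered 2 without HMO 2, 3 without HMO 3, 5 without LLO 2 and 11 without LMO 2, and without LLO 2, LLO 5 and LMO 2 together there were 1011 higher and 43 lower.

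The excess of higher genes depended on how the samples were scaled. After median-of-ratios scaling the median difference was 0.013, a shift of 0.35 on the log2 scale, and 131 genes (1.39%) were higher without overlap and 45 (0.479%) lower. Higher genes thus made up 99.8% of the genes without overlap in the deposited FPKM and 74.4% after scaling. Changes are given below in the deposited FPKM, and for the lists and part of the genes after scaling as well. The scaled value is the change relative to the typical gene.

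On the log2(FPKM + 1) scale, differences were smaller for rare than for abundant genes. This scale understates the changes of low genes, and its part in the gradient was not tested. The genes were divided by mean level into 5 bins of 1880 or 1881. In the lowest bin, with mean levels of 0.12 to 0.71 on that scale, the median difference was 0.21 and 31 genes (1.65%) were higher without overlap. In the bin below the highest the median was 0.59 with 166 such genes (8.83%), and in the highest bin 0.67 with 130 (6.91%). After scaling, the medians of the 5 bins lay between -0.012 and 0.040.

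The 12 genes with the largest difference among those without overlap included enzymes, chromatin and transcription proteins and mitochondrial proteins. NAA11, the catalytic subunit of an N-terminal acetyltransferase, had 3.48 to 78.3 FPKM (median 33.3) in numbers 1 and 5 and 0 to 3.28 FPKM (median 1.68) in numbers 2 and 3, a difference of 3.73 ± 0.36 (SE) on the log2(FPKM + 1) scale and 3.19 after scaling. MORF4L2, a chromatin protein of histone acetyltransferase complexes, had 22.3 to 289 FPKM (median 141) against 3.71 to 16.8 FPKM (median 8.41), a difference of 3.67 ± 0.29. POLR2C, a subunit of RNA polymerase II, had 5.16 to 117 FPKM (median 42.3) against 0.920 to 5.04 FPKM (median 2.62), a difference of 3.45 ± 0.33. For NAA11 and POLR2C the lowest value of the first set was close above the highest of the second, whereas the medians were far apart. LSO 1 was the lowest of the 12 for MORF4L2 (22.3 FPKM) and the next lowest, LMO 1, had 56.1 FPKM.

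Metabolic genes were among them as well. GRHPR, a reductase of glyoxylate and hydroxypyruvate, was the most abundant of the 12, with 141 to 832 FPKM (median 528) against 13.3 to 102 FPKM (median 56.5), a difference of 3.17 ± 0.23. SDHC, a membrane subunit of succinate dehydrogenase, had 33.5 to 223 FPKM (median 138) against 1.86 to 25.6 FPKM (median 16.1), a difference of 3.07 ± 0.31. TSFM, the elongation factor Ts of mitochondrial translation, had 32.9 to 268 FPKM (median 56.0) against 2.10 to 27.6 FPKM (median 9.67). PRKAG1, a regulatory subunit of AMP-activated kinase, BPNT1, a nucleotidase, and HDHD2, a hydrolase-like protein, differed by 3.38, 3.10 and 3.24. JAGN1, a protein of the endoplasmic reticulum, TAX1BP3, a PDZ protein, and HN1 differed by 3.26, 3.20 and 3.18. After scaling, JAGN1 (2.61), HDHD2 (2.58) and BPNT1 (2.48) remained without overlap, and the other 9 did not.

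**Figure D2:**
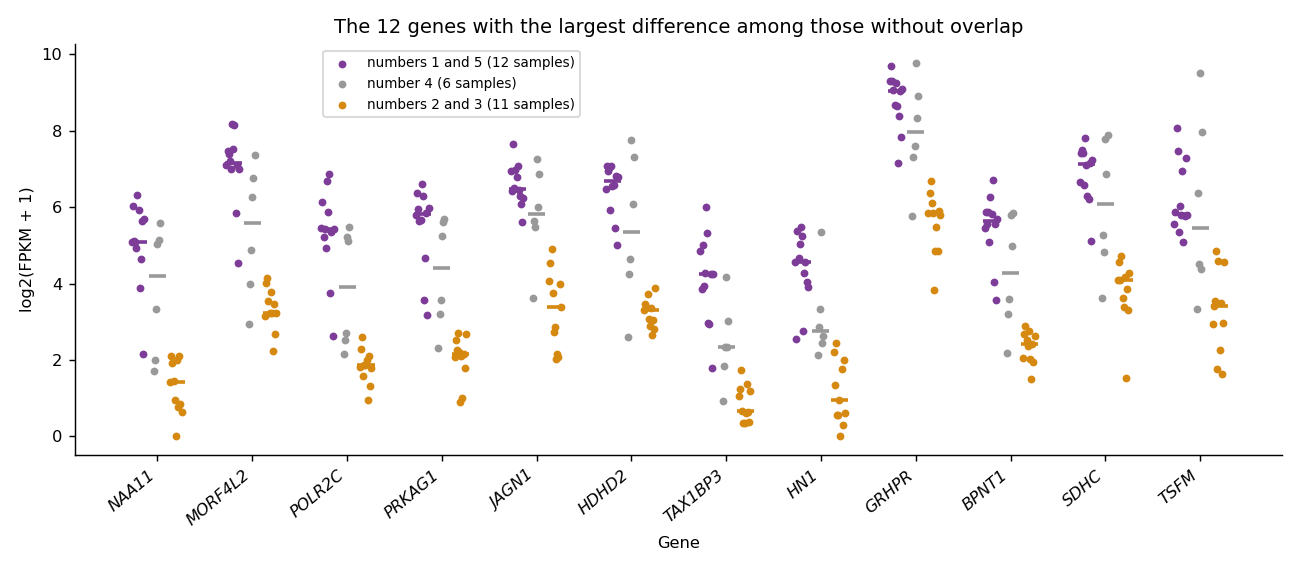
Levels of the 12 genes with the largest difference, as log2(FPKM + 1), in the samples numbered 1 and 5 (12 points per gene), number 4 (6 points) and numbers 2 and 3 (11 points), with bars at the medians. The first and last sets do not overlap for any of the 12 genes by the choice of the genes, and the samples numbered 4 span both.

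The other genes that the same rule named after scaling were DMRTC2, PPIL1, SERTAD3, HDAC3 and BUB3. DMRTC2, a DM-domain transcription factor of germ cells, had 8.13 to 61.7 FPKM (median 19.8) in numbers 1 and 5 and 0.717 to 3.38 FPKM (median 1.29) in numbers 2 and 3. HDAC3, a histone deacetylase, had 7.52 to 66.1 FPKM (median 20.4) against 0.565 to 3.99 FPKM (median 1.76). BUB3, a spindle checkpoint protein, had 172 to 981 FPKM (median 575) against 20.2 to 108 FPKM (median 72.7). These 3 differed by 3.05, 2.89 and 3.001 in the deposited FPKM and by 2.51, 2.34 and 2.31 after scaling. The rule chose them for their separation after scaling, and they were also without overlap in the deposited FPKM.

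Of the 45 genes lower without overlap in numbers 1 and 5 after scaling, the 8 with the largest difference had varied roles. TFE3, a transcription factor of lysosomal genes, had 3.63 to 13.7 FPKM (median 7.24) against 9.92 to 59.1 FPKM (median 19.3), -1.41 ± 0.22 as deposited and -2.03 scaled. MAEL, a factor of the piRNA pathway in germ cells, had 74.0 to 316 FPKM (median 217) against 274 to 579 FPKM (median 388), -0.96 as deposited and -1.65 scaled. EIF5, the GTPase-activating factor of translation initiation, differed by -0.96 and -1.63. Both scales placed these genes below 0, but in the deposited FPKM the sets overlapped. The same held for NUDT4 (-1.80 scaled), the nuclear receptor coactivator NCOA6 (-1.74), the spindle protein FAM83D (-1.58), the COP9 signalosome subunit COPS9 (-1.52) and SDHAF3 (-1.51), an assembly factor of succinate dehydrogenase. SDHAF3 and SDHC, of the same enzyme, thus differed in opposite directions.

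The gene with the most negative difference was a row of TMSB4X, an actin-binding thymosin, whose symbol is carried by 4 rows and which is uncertain; it was picked after its values were seen. It was listed at 0 in 7 of the 12 samples numbered 1 or 5, where the other 5 had 1219 to 6432 FPKM, and had 1632 to 9631 FPKM (median 4297) in numbers 2 and 3. All samples numbered 5 except LLO 5 were listed at 0.

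The genes encoded by the mitochondria lay below 0, and the nuclear respiratory genes were centred near 0 in the deposited FPKM. All 13 protein genes of the mitochondrial genome were below 0, with a median of -0.66 and -1.26 after scaling, and none was without overlap. Their summed level was 98.8 to 1965 FPKM (median 473) in numbers 1 and 5 and 211 to 5919 FPKM (median 447) in numbers 2 and 3. The sets thus overlapped nearly throughout, and the highest sums, 5919, 4611 and 4209 FPKM, belonged to HSO 3, LMO 3 and LSO 3. Of 79 nuclear genes for ATP synthase and respiratory complexes, 3 (3.8%, beside 5.35% of all genes) were higher and none lower without overlap. Their median was -0.003 and -0.53 scaled. The higher ones included SDHC and UQCRC2, a core protein of complex III, which had 18.2 to 80.8 FPKM (median 35.2) against 3.88 to 10.5 FPKM (median 5.19). Together the nuclear respiratory genes took 2.37 to 6.87% (median 5.18%) of the FPKM sum in numbers 1 and 5 and 4.39 to 8.15% (median 7.17%) in numbers 2 and 3.

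Cytosolic ribosomal protein genes made up less of the FPKM sum at the median. Of 142 cytosolic ribosomal protein rows, 2 (1.41%, beside 5.35% of all genes) were higher without overlap, and the median was -0.09, or -0.54 scaled. After scaling, 1 row was higher and 5 were lower without overlap, beside 1.39% and 0.479% of all genes. Together the cytosolic ribosomal protein genes took 2.15 to 11.5% (median 7.36%) of the FPKM sum in numbers 1 and 5. In numbers 2 and 3 it was 4.57 to 13.3% (median 10.9%), with overlap. Many of these rows share a symbol with another row and are uncertain. Mitochondrial ribosomal proteins lay on the other side at the median, 0.65, or 0.17 scaled. Of 72, 1 was higher without overlap (1.39%, beside 5.35% of all genes). MRPS18B, of the small mitochondrial subunit, had 20.6 to 183 FPKM (median 117) against 4.90 to 39.8 FPKM (median 14.3).

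Proteasome genes and translation factors had the highest list medians. Of 48 proteasome genes, 6 (12.5%, beside 5.35% of all genes) were higher and none lower without overlap, with a median of 0.83 and 0.33 scaled, where no member was without overlap. PSMB5, a catalytic subunit, had 76.5 to 330 FPKM (median 177) against 20.6 to 57.9 FPKM (median 30.3), a difference of 2.39 ± 0.20. PSMF1, a proteasome inhibitor, differed by 2.998 ± 0.30. Of 56 translation initiation and elongation factors, 7 (12.5%) were higher and none lower, with a median of 0.79 and 0.29 scaled. EIF4A3, a helicase of the exon junction complex, had 20.3 to 123 FPKM (median 48.2) against 4.47 to 19.7 FPKM (median 6.22). EIF4E, the cap-binding protein, whose symbol 2 rows carry, had 139 to 1015 FPKM (median 698) against 12.9 to 149 FPKM (median 87.9), and overlapped by a narrow margin.

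Of 52 genes of meiotic maturation and metaphase II arrest, 4 (7.69%, beside 5.35% of all genes) were higher and none lower without overlap, with a median of 0.43, or -0.08 after scaling. CCNB2, a cyclin B that activates CDK1, had 236 to 1498 FPKM (median 1012) in numbers 1 and 5 and 73.4 to 210 FPKM (median 120) in numbers 2 and 3, a difference of 2.82 ± 0.27. LSO 1 was its lowest value in the first set, and the next was LMO 1 with 497 FPKM. MAD2L1, a spindle checkpoint protein, had 46.4 to 657 FPKM (median 292) against 4.27 to 54.8 FPKM (median 30.6) and the sets overlapped.

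Of 36 genes of maternal mRNA storage and deadenylation, 4 (11.1%, beside 5.35% of all genes) were higher and none lower without overlap, with a median of 0.46, or -0.08 scaled. CNOT7 and CNOT8, deadenylases of the CCR4-NOT complex, had 6.13 to 30.3 FPKM (median 13.5) against 1.38 to 5.71 FPKM (median 2.61), and 3.34 to 23.6 FPKM (median 13.2) against 0.388 to 2.93 FPKM (median 1.82). CNOT2, a scaffold of the same complex, differed by 1.73 ± 0.19. None of these 3 was without overlap after scaling.

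Genes for the zona pellucida and secreted factors were not without overlap. GDF9 had 210 to 974 FPKM (median 448) in numbers 1 and 5 and 31.9 to 226 FPKM (median 102) in numbers 2 and 3, a difference of 2.04 ± 0.28 and 1.35 scaled, and only LLO 5 (210 FPKM) lay below the highest sample of the second set, HMO 3 (226 FPKM). ZP3 had 265 to 5318 FPKM (median 1591) against 57.5 to 1624 FPKM (median 551), and ZP4 differed by 1.80 ± 0.27. ZP2 and BMP15 differed by 0.58 ± 0.21 and 0.19 ± 0.25 as deposited, and by -0.11 and -0.49 after scaling. Over the 13 genes of this list the median was 0.54, or -0.11 scaled. Of the 10 genes of the subcortical maternal complex and other maternal effect genes none was without overlap, and OOEP differed by 1.67 ± 0.50.

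**Figure D3:**
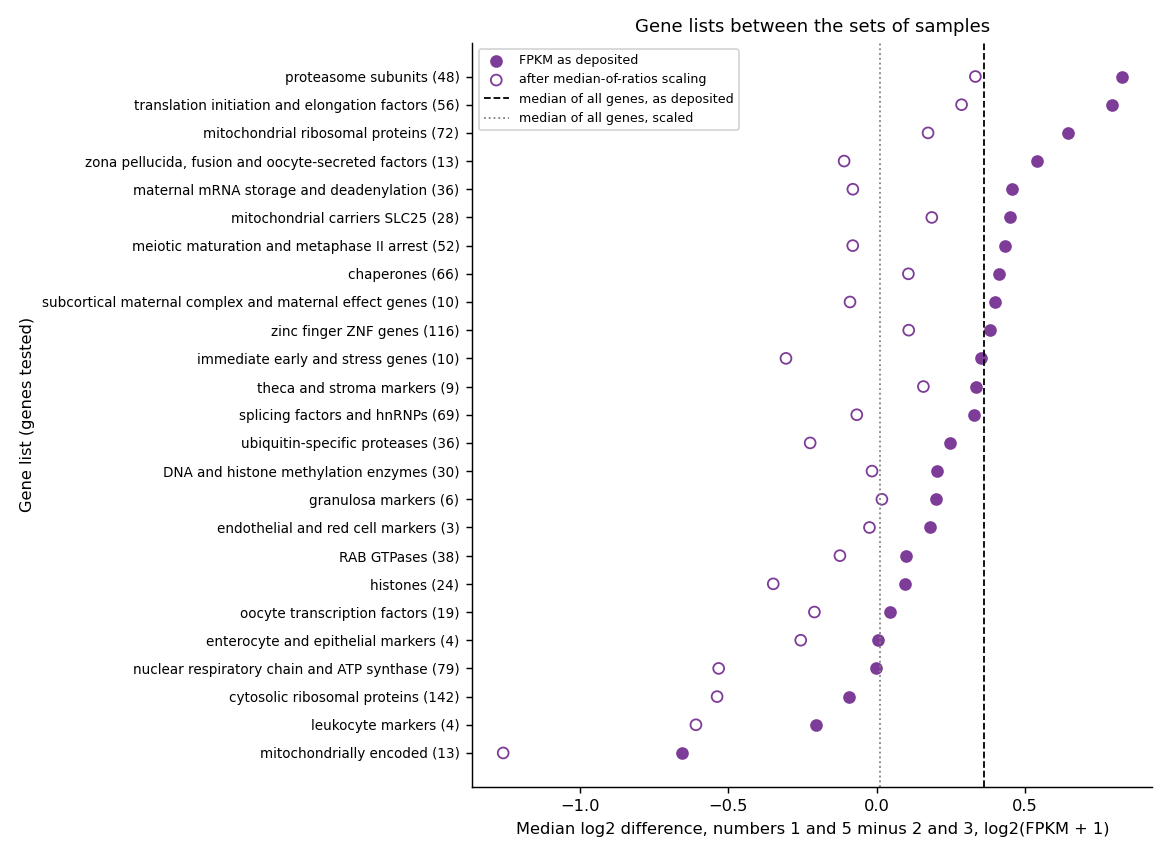
Median log2 difference of 25 gene lists, numbers 1 and 5 minus numbers 2 and 3, on the log2(FPKM + 1) scale, in the deposited FPKM (filled points) and after median-of-ratios scaling (open points), with the number of genes tested and lines at the medians of all 9401 genes (0.36 and 0.013). Proteasome genes (0.83) and translation factors (0.79) are at the top, and the mitochondrially encoded genes (-0.66) at the bottom, in both scales on the same side of the lines.

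Among the other lists, read beside 5.35% of all genes, the number of genes higher without overlap was 5 of 69 splicing factors (7.25%), 12 of 116 ZNF genes (10.3%), 3 of 66 chaperones (4.55%), 4 of 28 SLC25 carriers (14.3%), 2 of 38 RAB GTPases (5.26%), 1 of 30 methylation enzymes (3.33%) and 1 of 19 oocyte transcription factors (5.26%). None of 36 ubiquitin-specific proteases, 24 histones and 10 stress genes was without overlap, and no gene of these lists was lower without overlap as deposited, whereas 2 RAB GTPases were after scaling. Their medians were 0.05 to 0.45 as deposited and -0.35 to 0.19 scaled. PRPF38A, a spliceosome protein, had 26.0 to 90.8 FPKM (median 53.9) against 3.31 to 17.2 FPKM (median 8.87). RAB9A, a GTPase of late endosomes, had 33.8 to 109 FPKM (median 64.6) against 3.59 to 15.6 FPKM (median 8.51). CCT8, a subunit of the chaperonin that folds tubulin and actin, had 97.0 to 485 FPKM (median 240) against 30.03 to 65.3 FPKM (median 40.9), and FOXO3, a transcription factor that holds follicles dormant, had 2.76 to 10.8 FPKM (median 3.998) against 0.287 to 2.02 FPKM (median 0.569).

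Markers of other cells were present at differing levels. The 19 granulosa markers summed to 8.41 to 36.3 FPKM (median 21.1) in numbers 1 and 5 and to 5.90 to 16.5 FPKM (median 10.6) in numbers 2 and 3, with 6 of them tested, none without overlap and a median difference of 0.20. KITLG, the ligand of KIT, had 1.63 to 9.95 FPKM (median 7.54) against 1.10 to 3.78 FPKM (median 2.42), and SERPINE2, a protease inhibitor, 3.84 to 18.5 FPKM (median 10.6) against 3.23 to 10.7 FPKM (median 5.40). The 16 theca and stroma markers summed to 16.0 to 114 FPKM (median 67.1) against 32.1 to 72.2 FPKM (median 45.8), with MGP up to 49.1 FPKM and STAR up to 39.0 FPKM. Of the 9 tested, 1 (11.1%, beside 5.35% of all genes) was without overlap, TAGLN, an actin-binding protein of smooth muscle. It had 0.164 to 2.55 FPKM (median 0.593) in numbers 1 and 5, and was listed at 0 in all 11 samples numbered 2 or 3. The 18 leukocyte markers summed to 10.7 to 225 FPKM against 4.32 to 675 FPKM, with medians of 57.4 and 106 FPKM for CD52. The 11 endothelial and red cell markers did not exceed a sum of 4.70 FPKM in any sample, and the 14 enterocyte and epithelial markers 9.83 FPKM. The part of these markers in the differences was not tested.

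The difference between the sets was next compared between the study's own groups. The choice of the numbers was not independent of fertility, because it left out the samples numbered 4. On the first principal component LLO 4, LMO 4 and LSO 4 lay at 42.6, 33.6 and 49.5. HLO 4, HMO 4 and HSO 4 lay at -55.5, -17.4 and -6.05. By limma's moderated test with Benjamini-Hochberg adjustment, 0 of 9401 genes differed between high and low fertility in the size of the difference (82 genes at an unadjusted p under 0.05; smallest adjusted p = 1), and 0 between follicle sizes (94 genes; smallest adjusted p = 0.208). Without HSO 3 or without HSO 5, 1 gene passed between follicle sizes. A missing call does not show that the groups were alike. With the samples numbered 4 left out, the fertility test cannot decide whether expression by number depends on fertility. Single numbers were not terms of these fits, although genes differed between the numbers within a set, as given below.

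High and low fertility were then compared over the same 23 samples. No gene of 9401 passed limma's adjusted test (618 at an unadjusted p under 0.05), and none passed with the number set as a further factor (1192 at an unadjusted p under 0.05). Without LLO 5, 1 gene passed. With the samples numbered 4 added, 1 gene passed over 29 samples, PLEKHA3, which binds the lipid PI4P at the Golgi, lower in high fertility by 1.28 ± 0.22 (adjusted p = 0.0269). For the 504 genes without overlap, the median difference between high and low fertility was 0.28 over 23 samples, 0.20 with the number set in the model, and -0.05 over 29 samples, so the addition of the samples numbered 4 turned its direction.

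The samples numbered 4 had been left out of the sets, which were chosen from the expression values, so that their values are a description. On the first principal component they spread from -55.5 to 49.5, with HMO 4 (-17.4) and HSO 4 (-6.05) in between. For each of the 504 genes it was counted whether the sample lay on the side of numbers 1 and 5, the border being midway between the nearest values of the sets. In the low fertility groups 97.6% (LLO 4), 97.0% (LMO 4) and 98.6% (LSO 4) of the genes were on that side. In the high fertility groups it was 3.17% (HLO 4), 20.6% (HMO 4) and 56.3% (HSO 4). The groups did not overlap, with means of 97.8 ± 0.80% (SD, n = 3) and 26.7 ± 27.1% (SD, n = 3), high minus low being -71.0 percentage points. An exact permutation test of the fertility label on this measure gave p = 0.1. With 3 samples against 3 no smaller p is possible, so the test cannot decide whether the groups differ. The number of genes detected did not overlap either, with 8318 to 8689 genes in low fertility and 7251 to 7980 in high fertility. In number 4 the position along this axis and the fertility group cannot be told apart.

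**Figure D4:**
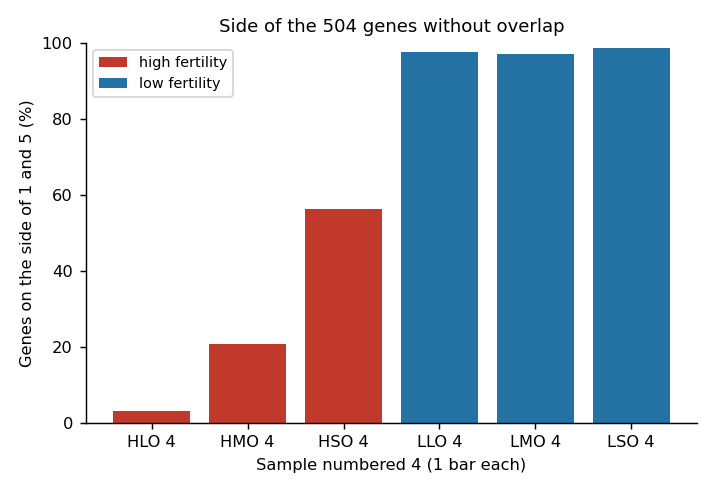
Share of the 504 genes without overlap (in percent) for which each sample numbered 4 lay on the side of numbers 1 and 5, 1 bar per sample, coloured by fertility. The 3 low fertility samples are at 97.0 to 98.6% and the 3 high fertility samples at 3.17, 20.6 and 56.3%.

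Of the 12 genes with the largest difference, 9 had all 3 low fertility samples numbered 4 above all 3 of high fertility, and in HN1, TSFM and TAX1BP3 they overlapped. GRHPR had 880, 324 and 481 FPKM in LLO 4, LMO 4 and LSO 4 and 53.1, 159 and 193 FPKM in HLO 4, HMO 4 and HSO 4. NAA11 had 31.6, 34.3 and 47.3 FPKM in the low fertility samples and 2.29, 3.01 and 9.14 FPKM in the high fertility samples. GDF9 had 504, 513 and 696 FPKM against 95.8, 246 and 221 FPKM. HN1 had 39.5, 4.41 and 5.18 FPKM in LLO 4, LMO 4 and LSO 4 and 3.38, 6.28 and 9.07 FPKM in HLO 4, HMO 4 and HSO 4, so that only LLO 4 stood out. GDF9 was not among the 504 genes.

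The 2 numbers within a set were then compared with each other, which the choice of the sets did not use. Between number 1 and number 5, 6 samples each, 587 of 9401 genes (6.24%) passed limma's test at an adjusted p under 0.05, with 207 (2.2%) higher and 380 (4.04%) lower in number 1. After median-of-ratios scaling 175 were higher and 99 lower, so that the share of higher calls moved from 35.3 to 63.9%. The count fell to 232 without HLO 5, 244 without LSO 5, 254 without LLO 5, 269 without LMO 5, 276 without LSO 1, 278 without LMO 1, 294 without HSO 1 and 368 without LLO 1. Of the 504 genes without overlap between the sets, 45 passed between 1 and 5.

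PAM16, a part of the motor that imports proteins into mitochondria, had 67.0 to 242 FPKM (median 130) in number 1 and 2.72 to 14.5 FPKM (median 5.49) in number 5, a log2 difference of 4.18 ± 0.33 (adjusted p = 7.68e-07 by limma). CINP, a partner of cyclin-dependent kinases, had 29.3 to 114 FPKM (median 35.5) against 0.994 to 6.91 FPKM (median 1.49), 3.76 ± 0.37 (adjusted p = 1.3e-05). MOS, the kinase that holds the egg in metaphase II, had 19.3 to 148 FPKM (median 59.3) against 1.41 to 12.6 FPKM (median 3.49), 3.56 ± 0.45 (adjusted p = 0.000163). In these 3 genes no sample numbered 5 reached a sample numbered 1. TMEM205 rose in number 1 by 3.54 ± 0.42. Lower in number 1, and picked after their values were seen, were FAM126B by -1.59 ± 0.28 and MRE11, a nuclease of DNA double-strand break repair, by -1.57 ± 0.29. MRE11 had 1.74 to 9.18 FPKM (median 6.77) in number 1 and 11.1 to 31.4 FPKM (median 19.0) in number 5.

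Between number 2 (5 samples) and number 3 (6 samples), 281 genes (2.99%) passed, 212 (2.26%) higher and 69 (0.734%) lower in number 2. After scaling it was 302 and 128. The count was 663 without HLO 2 and 423 without LSO 1. It was 105 without LMO 2, 119 without LMO 3, 126 without LSO 3, 137 without HMO 2, 154 without HMO 3, 156 without LLO 3, and 146 without LLO 2, LLO 5 and LMO 2 together. RNPS1, an RNA-binding protein of splicing, had 19.1 to 88.6 FPKM (median 50.4) in number 2 and 0 to 2.29 FPKM (median 0.344) in number 3, a difference of 4.98 ± 0.37 (adjusted p = 2.35e-07 by limma). DPM3, a subunit of dolichol phosphate mannose synthase, had 32.5 to 206 FPKM (median 156) against 0.703 to 15.6 FPKM (median 1.97), 4.98 ± 0.46 (adjusted p = 5.77e-06). Neither gene overlapped between the numbers.

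The other genes named between 2 and 3 varied within a number. POLR2L, a small subunit of the RNA polymerases, differed by 4.81 ± 1.12 between 2 and 3 (adjusted p = 0.0237 by limma) and was listed at 0 in samples of both numbers. LOC102168533 differed by 4.28 ± 1.15 (adjusted p = 0.0473) and its median in number 3 was 0 FPKM, with up to 89.4 FPKM. Lower in number 2, and picked after their values were seen, were MRPL30, of the large mitochondrial ribosomal subunit, by -2.48 ± 0.61, and C1orf194 by -2.11 ± 0.52. MRPL30 overlapped between the numbers, whereas C1orf194 did not, with 5.21 to 132 FPKM in number 2 and 155 to 296 FPKM in number 3.

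**Figure D5:**
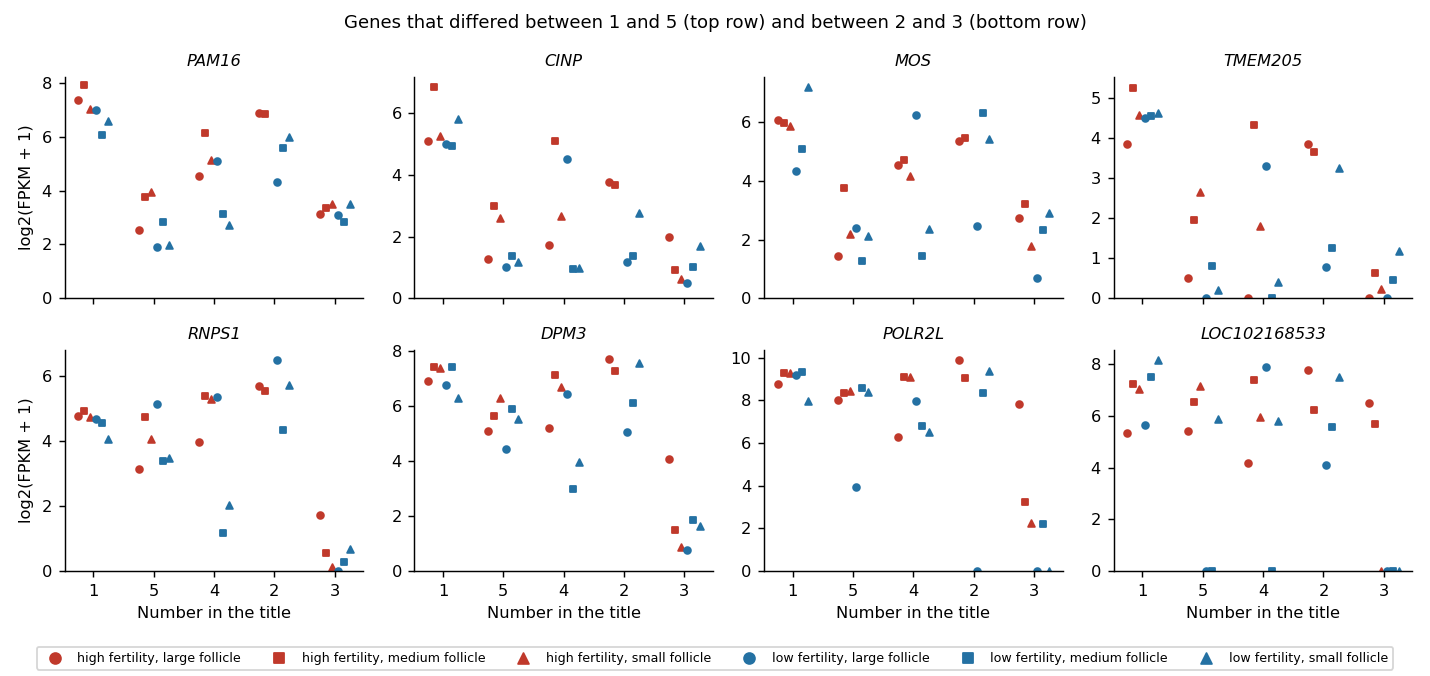
Levels of 8 genes as log2(FPKM + 1) by the number in the sample title, 1 point per sample (29 per gene), coloured by fertility and shaped by follicle size, with the 4 genes of largest change between 1 and 5 above and the 4 between 2 and 3 below. PAM16, CINP and MOS are above all samples numbered 5 in every sample numbered 1, and RNPS1 and DPM3 are above all samples numbered 3 in every sample numbered 2.

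The lists moved in part between single numbers. Of 72 mitochondrial ribosomal proteins, 10 rose (13.9%, beside 2.2% of all genes) and 1 fell in number 1 against 5 (8 and 0 after scaling), MRPL43 by 2.58 ± 0.37 and MRPL52 by 2.42 ± 0.47 among those that rose. Of 69 splicing rows, 8 fell (11.6%, beside 4.04% of all genes) and none rose in number 1 (3 and 0 after scaling), PRPF3 by -1.14 ± 0.23 and HNRNPH2 by -1.11 ± 0.25 among them. Of 24 histone genes, 7 rose (29.2%, beside 2.26% of all genes) and 1 fell in number 2 against 3, in both scales. Those that rose were the linker histones HIST1H1C (3.48 ± 0.55), HIST1H1D (3.21 ± 0.49) and HIST1H1E (2.08 ± 0.34), the oocyte linker histone H1FOO (1.39 ± 0.37), HIST2H2AC, HIST1H2AB and H3F3A. Of 52 meiotic genes, 6 rose (11.5%) and none fell in number 2, among them MOS (2.72 ± 0.48), the meiotic cohesin REC8 (2.63 ± 0.60), PLK1 (1.18 ± 0.32) and separase, ESPL1 (1.02 ± 0.22). GDF9 fell in number 2 against 3 by 1.19 on the log2 scale (SE 0.31, adjusted p = 0.0462 by limma). These members were picked after their values were seen.

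Number 1 against 5 and number 2 against 3 share no sample. Of the genes higher in number 1, 50 were also higher in number 2 against 3, which is 24.2% of the 207 and 23.6% of the 212, beside 2.26% and 2.2% of all genes tested. No gene was lower in both, and 4 were called in opposite directions. After median-of-ratios scaling 56 genes were higher in both, after quantile normalization 55, and without LLO 2, LLO 5 and LMO 2 it was 52. Over all 9401 genes the correlation of the 2 differences was r = -0.022, and 0.13 without those 3 libraries, as a description across genes, which are not independent. Both fits share 1 estimate of the spread for each gene.

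Of the 50 genes, 38 were in none of the gene lists. The other 12 were 3 nuclear respiratory genes, 2 mitochondrial and 1 cytosolic ribosomal protein, 2 translation factors, 2 histones and 2 meiotic genes. MOS had medians of 59.3 and 42.5 FPKM in numbers 1 and 2 and of 3.49 and 4.84 FPKM in numbers 5 and 3. REC8 had medians of 9.14 and 12.8 FPKM in numbers 1 and 2 against 0.201 and 0.258 FPKM in numbers 5 and 3. NDUFS7, a subunit of complex I, had medians of 182 and 87.0 FPKM against 39.9 and 14.8 FPKM. The medians of numbers 1 and 2 exceeded those of numbers 3 and 5 in 47 of the 50 genes, which were chosen for this pattern, and in TMEM11, EIF1 and BNIP3 the median of number 2 was below that of number 5. HIST1H2AB, MRPL52, MRPL41, EIF1B and PAM16 were also among the 50. In 5 of the 50 all samples numbered 1 or 2 were above all samples numbered 3 or 5.

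The samples could be placed on these 50 genes as well, a description since the genes were chosen on the same samples. With 0 set at the mean of numbers 3 and 5 and 1 at the mean of numbers 1 and 2, the median position of the genes was 0.954 to 1.24 in the samples numbered 1. It was 0.913 to 1.01 in 4 samples numbered 2, and 0.125 in LLO 2. The samples numbered 3 lay at -0.278 to 0.026 and those numbered 5 at -0.122 to 0.487. The samples numbered 4 were not used to choose the genes. Of these, LMO 4 and LSO 4 lay at -0.057 and -0.013, within the ranges of both number 3 and number 5. HLO 4 lay at 0.312, above number 3 and within the range of number 5. HMO 4, HSO 4 and LLO 4 lay at 0.698, 0.651 and 0.851, above number 5 and below the samples numbered 1.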

How the data were processed

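RNA-seq of 29 goat oocyte samples was used. The authors enriched poly(A) RNA with oligo(dT) beads, mapped the reads to the goat genome, kept unique matches with few mismatches, removed duplicates with picard, and deposited FPKM per gene from Cufflinks with the Ensembl annotation. The genome build and aligner are not given in the sources used here. FPKM are not counts, the read totals in the study's supplement were not used here, and depth could not be recovered from the steps of the values, so no counting interval is given. The table held 21343 genes, and 1 column of values named for no sample analysed here was not used. No 2 samples held identical values.

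Samples were grouped by their labels and by the number in the title. The members and gene lists were chosen with earlier results of these data known. Genes that exceeded 0.5 FPKM in 4 or more of the 23 samples (9401) were used as log2(FPKM + 1), a scale on which the changes of low genes are understated. The difference between the sets was fitted with the 6 groups as covariates and is given with its SE and no test. "Without overlap" means that every sample of one set lies beyond every sample of the other. Interactions, single numbers and fertility were tested with limma (moderated test with a trend, Benjamini-Hochberg adjustment, threshold 0.05), single numbers with terms for the other numbers and groups, and fertility with follicle size as covariate. Samples numbered 4 were described. Their fertility groups were compared in 1 measure by an exact permutation test.

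Named genes were up to 12 per direction with the largest difference among those without overlap that carry a symbol of their own, up to 3 per list with the largest difference, GDF9, BMP15 and ZP genes, and up to 4 per tested contrast with the largest change. Of the genes tested, 1376 share a symbol with another row and are uncertain. The gene lower without overlap in the deposited FPKM is not reported here. Alternatives were median-of-ratios factors, quantile normalization, pseudocounts of 0.1 and 0.5, no filter, a limit of 1 FPKM, 1 gene per symbol, no group covariate, array weights, a replicate block, and each sample left out. Added after seeing the data were the 29 samples for fertility, the removal of the 3 libraries that stood apart, the naming of 8 genes per direction after scaling, and the genes that passed both comparisons of single numbers. The limma tests were checked on simulated data. R 4.3.3 with limma 3.58.1 was used, and figures were drawn with matplotlib.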

Additional observations from a re-analysis of the deposited data

Results flagged for a closer look

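Within the 6 groups, 5 sample-level measures were searched for a sample far from the rest of its group (30 searches, of which chance gives about 1 in 20). LMO 2 had an FPKM sum of 222697, against 398198 in the next lowest LMO sample, and HLO 1 had 1684 FPKM of mitochondrially encoded genes, against 447 FPKM in the next highest HLO sample. Without LLO 2, LLO 5 and LMO 2, 1011 genes were higher and 43 lower without overlap in numbers 1 and 5. The median difference over all genes was then 0.40, against 0.36.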

How the results depend on the processing

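With median-of-ratios factors, 131 genes were higher and 45 lower without overlap, the median difference was 0.013, and 274 and 430 genes passed between numbers 1 and 5 and between 2 and 3. With quantile normalization these values were 120, 56, -0.032, 355 and 440. Without a filter the median was 0.060 and 352 and 155 genes passed, with a limit of 1 FPKM the median was 0.47, with a pseudocount of 0.1 it was 0.65 and 270 genes passed between 1 and 5, and with 0.5 it was 0.48. With array weights, whose estimation stopped before it converged in at least 1 fit, 1725 and 866 genes passed between single numbers, 1 between follicle sizes and 2 between fertility groups. Leaving out the 3 libraries that stood apart gave 1011 higher and 43 lower genes and 146 between 2 and 3, and all 29 samples gave 1 gene for fertility. When each sample was left out in turn, the genes without overlap numbered 503 to 1035 higher and 1 to 11 lower, those between 1 and 5 numbered 232 to 745, between 2 and 3 105 to 663, between follicle sizes 0 to 1 and between fertility groups 0 to 1. The interaction with fertility stayed at 0 in every alternative run, all of them without the samples numbered 4. The 111 named genes and 25 lists were followed only under the 2 other scales, pseudocounts of 0.1 and 0.5, and each sample left out. Of their alternative values, 111 of 2989 and 64 of 675 moved by more than their spread, most of them under the other scales. No named gene without overlap changed sign in these runs, but such genes were picked for their large differences.

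With the number as a replicate block, 0 genes passed between fertility groups, as without it. The samples share only a number: all pairs of samples numbered 2, 3 or 5 had deviations from their group means with a correlation over 0.1, but only 10 of 15 pairs numbered 1 and 5 of 15 numbered 4. The read totals in the study's supplement were not used here, so no precision is given for low FPKM.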

Other observations

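The KEGG pathways written in the deposited table were described with at least 25 genes tested each, a choice made after the data were seen. Basal transcription factors had the highest median difference after median-of-ratios scaling, 0.51 over 40 genes (0.87 in the deposited FPKM), with 6 genes (15%, beside 5.35% of all genes) higher without overlap in numbers 1 and 5. Amino sugar and nucleotide sugar metabolism followed with 0.50 over 33 genes (0.79 as deposited) and fatty acid elongation with 0.38 over 25 genes (0.88 as deposited). In these, 1 gene (3.03%) and 2 genes (8%) were higher without overlap. Oxidative phosphorylation had the lowest, -0.67 over 132 genes (-0.07 as deposited), followed by cardiac muscle contraction, -0.60 over 49 genes (-0.13 as deposited). Higher without overlap were 6 (4.55%) and 1 (2.04%) of their genes, so the shares did not follow the order of the medians. Many genes belong to several pathways, and the medians are a description with no test.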
